A study of Mus with 2 samples.

Results

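A set of 40 cell cycle genes was followed in epithelial cells of the mouse distal ileum. They were a fixed list of symbols, out of 8989 genes named in the authors' deposited tables, and they were split by the part of the cycle in which each is known to act. The list held 14 S phase genes, 15 G2/M genes, 3 cyclin and kinase genes of G1, and 8 genes of chromatin and the cytoskeleton that dividing cells use but that are not bound to a phase. Cells of the ileal epithelium were sorted and sequenced one by one with inDrops, a droplet method that counts RNA molecules primed at their poly(A) tail. One sample came from Nav1.8Cre+/-DTA+/- mice, in which the nociceptor-directed Nav1.8 Cre driver turns on diphtheria toxin A and so removes the pain-sensing neurons. The other came from Nav1.8Cre-/-DTA+/- littermates, which carry the toxin allele with no Cre, and both were labelled as baseline, with no treatment. Each sample pooled the cells of 3 male mice aged 8 weeks, so each genotype had 1 sample, with no replicate, and genotype could not be tested. A gene is called lower or higher where its log2 fold change was at least 0.25 in size. That is a rule of size and not a test.

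A cell that divides passes through G1, in which D-type cyclins and their kinase commit it to the cycle, then copies its DNA in S phase and segregates it in G2 and M phase. In the small intestine, division is confined to the crypts, where stem cells and their transit-amplifying daughters divide, while the absorptive and secretory cells of the villus have mostly left the cycle. Messenger RNAs of many S phase and G2/M genes are made only in their own part of the cycle, so that at any time they are found in a fraction of dividing cells.

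The deposited sheets gave, for each gene and cell type, the share of cells in which it was detected in a first and a second group, and the log2 fold change of mean expression of group 1 over group 2. No sheet named the genotype of either group or said that their order was the same in every sheet, so no direction of nociceptor loss is given. Sheet size was 3426 genes (enterocytes), 5403 (stem cells), 4537 (goblet), 5287 (enteroendocrine) and 6765 (tuft), and a gene was listed only if 10% or more of either group had it. The cell numbers behind the sheets and their sequencing depth are unknown here. Genes listed at a share of 0 in a group still had finite fold changes, so the fold changes of weakly detected genes are compressed. Detection shares took at least 183 distinct values in each group of the enterocyte, stem and goblet sheets. They took only 35 and 41 in enteroendocrine cells (groups 1 and 2) and 19 and 8 in tuft cells. Markers of each cell type were looked up in the sheets. All 8 stem markers were listed in the stem sheet, with Lgr5 in 21.1% and 29.9% of cells per the authors' deposited table. All 8 goblet and all 8 enteroendocrine markers were listed in their own sheets, 7 of 8 in tuft cells (Il25 was not listed) and 6 of 8 in enterocytes (Fabp1 and Apoa4 were not listed). Goblet markers were also listed elsewhere, 7 of 8 in the enterocyte, stem and enteroendocrine sheets and 8 of 8 in the tuft sheet. Being listed therefore does not by itself separate the types. Of 8 lymphocyte markers, Ptprc in tuft cells was the only one listed in any sheet.

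How many of the genes reached the 10% limit differed between cell types. The stem sheet listed 37 of the 40 (92.5%), where it listed 60.1% of the 8989 genes. In the other sheets the share of cycle genes was below that of all genes. It was 26 of 40 in the tuft sheet (65%, against 75.3% of all genes), 15 in goblet cells (37.5% against 50.5%), 11 in enteroendocrine cells (27.5% against 58.8%) and 4 in enterocytes (10% against 38.1%). In the tuft sheet, 21 of the 26 reached the limit in 1 group only. Of the 40, 12 were listed in 1 sheet only, among them Mki67 and Ccnb1, and Ccnd2, Cdk4, H2afz and Ptma were listed in all 5. Mcm4, a subunit of the replicative helicase, and Cks2, a partner of cyclin-dependent kinases, were listed in no sheet. Hmgn2, a nucleosome-binding protein, was listed in tuft cells only. No S phase or G2/M gene was listed in enterocytes, and no G2/M gene in enteroendocrine cells.

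In the stem cell sheet the listed genes of the cycle had a fold change below 0 (37 of 37) and a lower detection in group 1 (37 of 37). These counts need their background, because 91.8% of all genes of that sheet had a fold change below 0, 91.8% had a lower detection, and the median detection of all genes was 16.6% in group 1 and 20.6% in group 2. At a log2 fold change of -0.25 or less, 11 of 37 cycle genes passed, against 4.39% of all genes of the sheet. No cycle gene was at 0.25 or more, where 0.0185% of all genes lay. The median of the 37 was -0.18 and that of all genes -0.07. A detection share lower by 10 percentage points or more was found for 16 of the 37 and for 9.2% of all genes. Counted from the median of all genes in place of 0, 5 of 37 passed the fold threshold, against 1.61% of the sheet. Of the 37, 3 (Rrm2, Tpx2 and Nusap1) reached the 10% limit in group 2 only and so had to be lower in group 1. A smaller share of dividing cells and fewer molecules captured per cell cannot be told apart in these values.

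**Figure D1:**
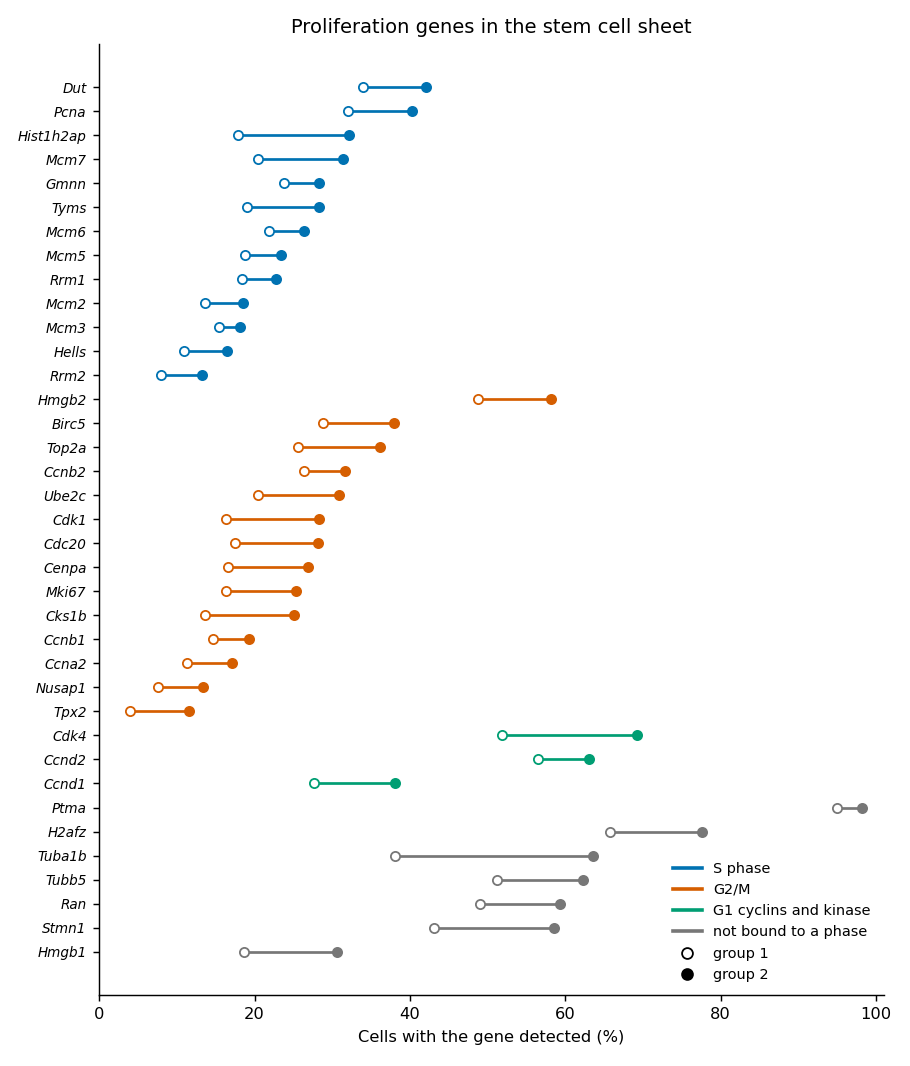
Share of cells (%) in which each listed cycle gene was detected in the stem cell sheet, for group 1 (open circles) and group 2 (filled circles), coloured by the part of the cycle. All 37 genes lie to the left in group 1, with the widest gap for Tuba1b (38.1% and 63.5%) and the narrowest for Mcm3 (15.4% and 18.1%).

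Most genes of S phase lay close to the median of all stem cell genes. The median of the 13 listed was -0.09, and 8 of 13 were below the sheet's median, with 1 gene (Hist1h2ap) past the threshold, which 4.39% of all genes of the sheet passed. The helicase that opens DNA for replication is built of the Mcm2 to Mcm7 proteins, and 5 of these genes were listed. Mcm2 (13.6% of group 1 and 18.5% of group 2), Mcm3 (15.4% and 18.1%), Mcm5 (18.8% and 23.4%) and Mcm6 (21.8% and 26.3%) had fold changes between -0.08 and -0.04 per the authors' deposited table, next to the sheet's median. Mcm7 stood lower, at -0.19, with detection in 20.4% and 31.4% of cells per the authors' deposited table. Pcna, the sliding clamp that holds DNA polymerase on its template, was at -0.21 (32.0% and 40.3%) per the authors' deposited table.

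The enzymes that supply DNA building blocks were all listed and ran from -0.16 to -0.09. Thymidylate synthase, Tyms, was at -0.16, detected in 19.0% of group 1 and 28.3% of group 2, and the dUTP hydrolase Dut at -0.14 (34.0% and 42.0%), per the authors' deposited table. The large and small subunits of ribonucleotide reductase were nearer the sheet's median per the authors' deposited table, with Rrm1 at -0.09 (18.4% and 22.8%) and Rrm2 at -0.10 (7.9% and 13.2%). Gmnn, which blocks a second round of replication, was at -0.05 (23.8% and 28.3%), and the chromatin remodeller Hells was at -0.05 (10.9% and 16.5%), per the authors' deposited table.

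Hist1h2ap, a histone H2A gene of the replication-dependent cluster, stood apart from the other S phase genes with a fold change of -0.46 per the authors' deposited table, the 13th lowest of the sheet. It had detection shares of 17.9% (group 1) and 32.2% (group 2) per the authors' deposited table. Messages of this histone class mostly lack a poly(A) tail, and the symbol matched 2 RefSeq genes of near-identical histones, so its counts are uncertain. Without Hist1h2ap and Gmnn, the S phase median was again -0.09.

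All 14 listed G2/M genes were below the median of all stem cell genes, and their own median was -0.19. Of these, 3 passed the threshold, against 4.39% of all genes. Ube2c (chromosome 2, 164769929 to 164772902 in mm10, protein-coding), the ubiquitin-conjugating enzyme of the anaphase-promoting complex, was at -0.29 with detection in 20.4% and 30.8% of cells per the authors' deposited table. Hmgb2, a DNA-bending protein of mitotic chromosomes, was at -0.28 (48.8% and 58.2%), and Top2a, the topoisomerase that untangles sister chromatids, at -0.27 (25.6% and 36.1%), per the authors' deposited table. Cdc20, which activates the same complex as Ube2c, was at -0.23 (17.5% and 28.1%) per the authors' deposited table.

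No listed gene of the mitotic kinase and its partners passed the threshold, which 4.39% of all genes did. By detection, though, Cdk1 and Cks1b differed more (-12.0 and -11.5 points) than Ube2c (-10.4 points). The kinase Cdk1 was at -0.23, detected in 16.3% (group 1) and 28.3% (group 2) of cells, and Cks1b, a small protein that binds it, at -0.21 (13.6% and 25.1%), per the authors' deposited table. Among the cyclins, Ccnb2 was at -0.16 (26.3% and 31.6%), Ccna2 at -0.11 (11.3% and 17.1%) and Ccnb1 at -0.09 (14.7% and 19.3%) per the authors' deposited table. The cyclins were thus nearer the sheet's median than the kinase they activate.

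Spindle and centromere genes lay between -0.20 and -0.13. Cenpa, the histone H3 variant that marks centromeres, was at -0.20 (16.6% and 26.9%) and Birc5, or survivin, of the chromosomal passenger complex at -0.18 (28.8% and 37.9%), per the authors' deposited table. The microtubule-binding proteins Nusap1 (-0.14, 7.5% and 13.4%) and Tpx2 (-0.13, 3.9% and 11.6%) had small fold changes per the authors' deposited table. Both were listed through group 2 only, so their lower detection in group 1 was fixed by the 10% limit. Mki67, the proliferation antigen Ki-67, was at -0.17, with detection in 16.3% and 25.3% of cells per the authors' deposited table.

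Genes not bound to a phase had the lowest median fold change of the 4 classes, -0.30. They were also better detected than the G2/M genes, with median shares of 49.0% and 62.3% against 16.5% and 27.5%. By the ratio of detection in group 1 to that in group 2, the order was another. Its median was 0.822 for these genes, near the 0.811 of all genes, and 0.653 for G2/M genes. Of 7 listed, 6 passed the threshold, against 4.39% of all genes of the sheet and 27.1% of those with a mean detection of 50% or more. The chromatin protein gene Hmgb1 was at -0.20 (18.6% and 30.6%) per the authors' deposited table. H2afz (chromosome 3, 137864487 to 137866922 in mm10, protein-coding), which encodes the histone variant H2A.Z, was at -0.48 with detection in 65.8% and 77.6% of cells per the authors' deposited table. Ptma (chromosome 1, 86526557 to 86530712, protein-coding), which encodes the acidic nuclear protein prothymosin alpha, was at -0.47 (95.0% and 98.2%) per the authors' deposited table. They ranked 9 and 10 from the lowest of the whole stem sheet.

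Tubulin genes and their regulator were also low in group 1 of the stem sheet. Tuba1b (chromosome 15, 98931429 to 98934390 in mm10), an alpha-tubulin, was at -0.42, and its detection differed most of the cycle genes, 38.1% in group 1 and 63.5% in group 2, per the authors' deposited table. The beta-tubulin Tubb5 was at -0.30 (51.2% and 62.3%), and Stmn1, which encodes the microtubule-destabilising protein stathmin, at -0.27 (43.1% and 58.5%), per the authors' deposited table. The GTPase Ran, which drives nuclear transport and spindle assembly, was at -0.28 (49.0% and 59.3%) per the authors' deposited table. Ptma, Ran, Hmgb1 and the tubulins have processed pseudogenes or close relatives, and the sources used here do not say how reads shared with those were counted.

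The 3 genes of G1 differed from each other in the stem sheet. Cdk4 (chromosome 10, 127063535 to 127067288 in mm10, protein-coding), the kinase partner of D-type cyclins, was at -0.38, detected in 51.9% (group 1) and 69.2% (group 2) of cells per the authors' deposited table. Its partner Ccnd1, cyclin D1, was at -0.15 (27.7% and 38.1%), and Ccnd2, cyclin D2, was at -0.02 (56.5% and 63.1%), per the authors' deposited table. Ccnd2 was the highest of the 37 cycle genes and lay above the median of all genes, while Cdk4 was the 33rd lowest gene of the sheet.

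Fold changes of the stem sheet were larger for better detected genes, so the cycle genes were also read against genes of similar detection. Among genes with a mean detection under 25%, the 18 cycle genes had a median of -0.12 and all 3505 genes a median of -0.05. None of those 18 passed the fold threshold, which 0.0856% of all genes in that range did. Between 25% and 50%, the medians were -0.19 for 10 cycle genes and -0.11 for 1212 genes, and 3 of the 10 passed against 3.96% of all. At 50% or more, the medians were -0.30 for 9 cycle genes and -0.19 for 686 genes. Of those 9, 8 passed the threshold, all but Ccnd2, and 27.1% of all genes of that range did. In each of the 3 ranges the median of the cycle genes was below that of all genes.

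**Figure D2:**
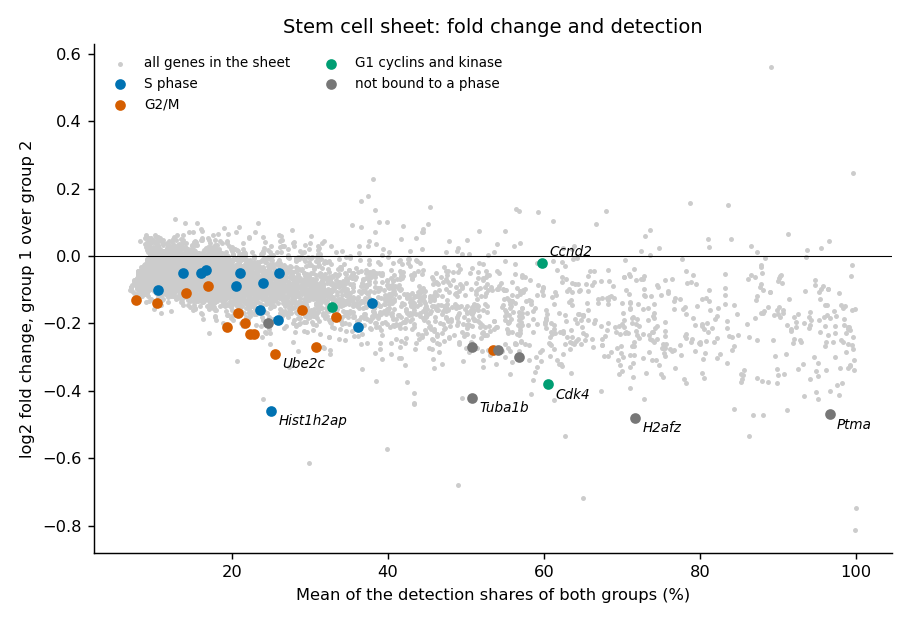
Log2 fold change of group 1 over group 2 (vertical) against the mean of both detection shares in % (horizontal) for the 5403 genes of the stem cell sheet in grey, with the cycle genes coloured by phase. Of the 37 cycle genes, 31 lie below the sheet's median of -0.07. They include Hist1h2ap (-0.46) and Ube2c (-0.29) at low detection and Ptma (-0.47) at the highest. Above that median lie 6, of which Ccnd2 (-0.02) is the highest.

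Genes of the cycle outside the list of 40 had medians in the same order by phase, with a smaller gap. Those lists were chosen with earlier results of these data known, so they are no independent check. Of 61 further G2/M genes, 34 were listed in stem cells, with a median of -0.11. Of these 34, 9 reached the 10% limit in 1 group only, as did 1081 of the 5403 genes of the sheet. The limit fixed the direction of detection of such genes. In all, 28 of the 34 were below the sheet's median and 3 passed the threshold, against 4.39% of all genes. Those were Tubb4b, a beta-tubulin (-0.35), Jpt1 (-0.27) and Cdca3 (-0.26) per the authors' deposited table, and the condensin gene Smc4 was at -0.23. Of 52 further S phase genes, 31 were listed with a median of -0.08, 16 of them below the sheet's median and none past the threshold. Here 11 of the 31 reached the 10% limit in 1 group only. Dek, a chromatin protein, was at -0.18 and the histone chaperone Nasp at -0.13 per the authors' deposited table. Among 12 listed histone genes (median -0.13), 3 passed, namely H2afx (-0.37), H3f3b (-0.35) and the linker histone H1f0 (-0.31) per the authors' deposited table. Through 1 group only, 4 of the 12 reached the 10% limit. Genes of growth and entry into G1 had a median of -0.11 over 15 listed, with the nucleolar proteins Ncl (-0.32) and Npm1 (-0.29) past the threshold per the authors' deposited table.

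Inhibitors of the cycle had a higher median than the cycle genes. Of 21, 10 were listed in stem cells with a median of -0.04, and 3 of them were below the sheet's median. None passed the threshold, against 4.39% of all genes, so that count was near the background. Like most genes of the sheet, 8 of the 10 had a negative fold change and 9 a lower detection in group 1. Of the 10, 3 reached the 10% limit in 1 group only. Cdkn1a, the kinase inhibitor p21, was at 0.03, detected in 28.1% (group 1) and 25.1% (group 2) of cells per the authors' deposited table. Cdkn2b, the inhibitor p15, was at -0.02 (22.0% and 23.0%), and the antiproliferative genes Btg2 and Btg1 at -0.04 and -0.08, per the authors' deposited table.

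Markers of cell types also differed between the groups of the stem sheet. Of 8 stem markers, 7 were below the sheet's median of -0.07, with a median of their own of -0.14, a lowest value of -0.42 (Olfm4, 44.9% and 54.0%) and Lgr5 at -0.13 per the authors' deposited table. Among these 8, 3 (Axin2, Rgmb and Ascl2) reached the 10% limit in group 2 only, so their lower detection in group 1 was fixed by it. Of 8 enterocyte markers 5 were listed, with a median of 0.08 and a highest value of 0.56 (Apoa1, in 88.2% and 90.0% of cells) per the authors' deposited table. Of 7 listed goblet markers, 6 were below the sheet's median and 3 passed the threshold (4.39% of all genes), with a median of -0.20, and Muc2 was detected in 27.7% and 41.3% of stem cells per the authors' deposited table. The part of these markers, and of the lower detection over the whole sheet, in the values of the cycle genes was not tested.

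In the authors' table of cluster markers, 17 of the 40 genes were listed for any of 8 clusters, and all 17 were markers of cluster 2. Of the genes in the stem sheet, 14.1% were markers of that cluster, against 17 of the 37 cycle genes. Clusters are drawn from the expression of the same cells, so these values are a description, with no test. Ptma led all 761 markers of cluster 2, followed by the stem marker Olfm4 and genes of ribosomal proteins, at a log2 fold change of 2.15 and detection in 95.8% of the cluster against 23.2% of other cells per the authors' deposited table. H2afz followed among the cycle genes at 1.04 (67.7% and 11.3%), and then Tubb5 at 0.91 (53.6% and 6.9%), per the authors' deposited table.

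Contrast in detection was wider for cycle genes than for a typical marker of the cluster. Their median detection was 46.4% inside cluster 2 and 5.1% outside it, while the 761 markers had medians of 44.4% and 14.2%. Stmn1 was found in 46.4% of cluster 2 cells and 3.1% of others, a ratio of 15.0, per the authors' deposited table. The G2/M genes listed were Hmgb2 (0.78, 49.0% and 6.0%), Top2a (0.53, 29.7% and 3.1%), Birc5 (0.50, 31.7% and 2.8%), Ube2c (0.47, 25% and 1.8%) and Ccnb2 (0.42, 26.9% and 2.3%) per the authors' deposited table. S phase was represented by Hist1h2ap (0.60, 25% and 1.9%), Dut (0.51, 35.2% and 4.3%) and Pcna (0.43, 32.2% and 5.3%) per the authors' deposited table. The G1 genes were Cdk4 (0.76, 53.6% and 8.5%), Ccnd2 (0.63, 51.5% and 14.9%) and Ccnd1 (0.35, 29.8% and 3.9%) per the authors' deposited table.

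The marker table held no gene detected in under 25% of its cluster. Of the 20 cycle genes of the stem sheet that were not cluster 2 markers, all 20 were under 25% in group 1 of that sheet and 10 were under it in both groups. How the cells of cluster 2 relate to those of the stem sheet is not stated in the sources used here. Had they been the same cells counted the same way, each gene's share in the cluster would lie between those of the sheet's groups. It did so for 163 of the 761 markers (21.4%), and for 15 of the 17 cycle genes. The cells or the way of counting therefore differed.

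**Figure D3:**
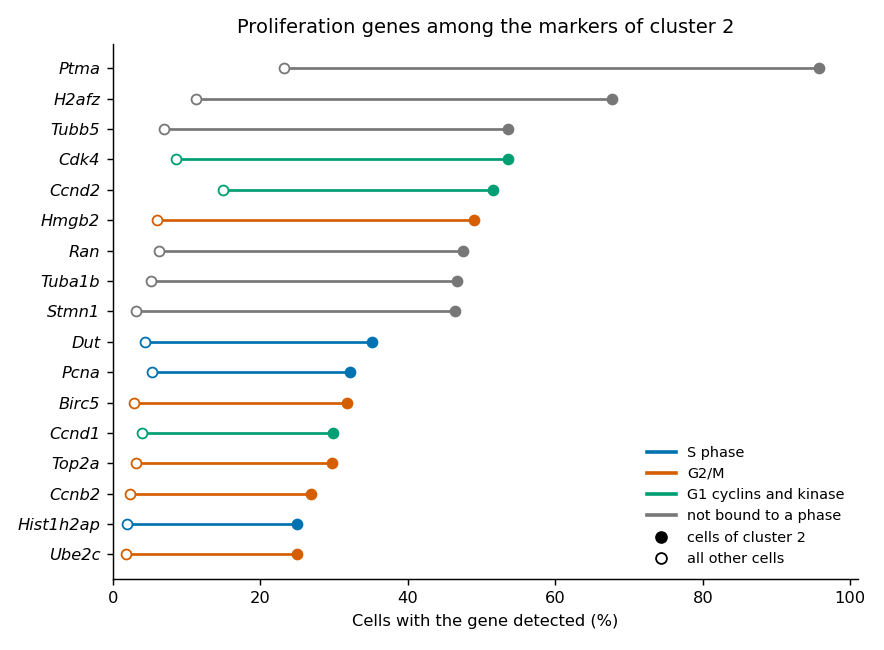
Share of cells (%) with each of the 17 cycle genes listed as markers of cluster 2, in cells of that cluster (filled) and in all other cells (open), coloured by the part of the cycle. Ptma has the highest share both inside (95.8%) and outside (23.2%), and the S phase and G2/M genes are at or under 6.0% outside the cluster.

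Of the 17, 2 were also markers of another cluster. Cyclin D2, Ccnd2, was a marker of cluster 4, which is led by the goblet genes Tff3 and Zg16, at 0.67 with detection in 55.1% of its cells and 17.6% of others per the authors' deposited table. Ptma was a marker of cluster 6, led by the hormone genes Gcg and Pyy (0.54, 76.8% and 34.1%), and of cluster 7, led by Krt18 and the tuft gene Sh2d6 (0.64, 68.0% and 34.5%), per the authors' deposited table. Of the inhibitors, Cdkn2b was a marker of cluster 0 (0.37, 46.7% and 20.8%) and Cdkn1a of cluster 1 (0.40, 58.8% and 39.1%) per the authors' deposited table. These are clusters led by Lypd8 with the lectin gene Reg3b, and by 4933405D12Rik with Fabp2, a fatty acid binding protein of enterocytes. Btg2, of the same list of inhibitors, was a marker of cluster 4 (0.31, 35.7% and 17.6%) and cluster 6 (0.82, 53.6% and 18.7%). Gadd45g, also of that list, was a marker of cluster 6 (0.55, 31.9% and 5.2%) per the authors' deposited table.

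Enterocytes and goblet cells listed fewer cycle genes, with medians nearer 0 than in stem cells. In enterocytes the 4 listed genes were below 0, as were 78.6% of all genes of the sheet, and 1 of 4 passed the threshold against 1.55% of all genes. None was at 0.25 or more, where 0.204% of all genes lay. The called gene was Ptma, at -0.28, detected in 20.4% (group 1) and 31.5% (group 2) of cells per the authors' deposited table. H2afz was at -0.11 (11.3% and 17.1%), Ccnd2 at -0.10 (12.3% and 16.1%) and Cdk4 at -0.06 (9.1% and 12.8%) per the authors' deposited table. The median of all enterocyte genes was -0.03. Goblet markers were low in the same sheet, with a median of -0.18 over 7 listed and Agr2 in 30.8% and 45.6% of enterocytes per the authors' deposited table. Their part in the values of cycle genes was not tested.

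In goblet cells 11 of the 15 listed genes were below 0, where 72.7% of all genes of the sheet were, so that share was near the background. At -0.25 or less was 1 of 15, against 2.76% of all genes, and at 0.25 or more none, against 0.617%. The called gene was again Ptma, at -0.30 with detection in 56.9% and 69.4% of cells per the authors' deposited table. Next were H2afz at -0.22 (33.8% and 43.2%) and Hmgb2 at -0.21 (14.4% and 22.4%) per the authors' deposited table. Birc5 was at -0.15 (5.6% and 10.2%) and Ran at -0.12 (19.5% and 25.5%) per the authors' deposited table. The remaining values were close to 0. Ccnd2 was at -0.08 with nearly equal detection (62.1% and 63.3%), and Ccnd1, Pcna and Top2a were at 0.05, 0.04 and 0.03, per the authors' deposited table. Tuba1b, which differed most in detection in stem cells, was at -0.08 in goblet cells with detection in 13.3% and 16.7% per the authors' deposited table. Of the 15 genes, 7 reached the 10% limit in 1 group only. Enterocyte markers were on the other side of 0 in this sheet, with 6 of 6 listed at or above 0 and Apoa1 at 1.29 (92.8% and 86.4%) per the authors' deposited table. Their part in the values of cycle genes was not tested.

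In enteroendocrine cells the cycle genes lay on the other side of 0. Of 11 listed, 2 were below 0, against 64.6% of all genes of the sheet, and their median was 0.05, against -0.05 for all genes. Of 11, 1 was at 0.25 or more, against 2.23% of all genes, and none was at -0.25 or less, against 6.47%. Ptma had a fold change of 0.27 but lower detection in group 1, 73.5% against 82.5%, per the authors' deposited table. Stmn1 was at 0.13 (14.7% and 5.0%), Dut at 0.13 (17.6% and 7.5%) and Ccnd2 at 0.12 (23.5% and 20%) per the authors' deposited table. H2afz was at 0.10 (32.4% and 25%), Ran at 0.05 (23.5% and 20%) and Cdk4 at 0.03 (32.4% and 35.0%), per the authors' deposited table. Pcna (-0.09, 5.9% and 12.5%) and Hmgb1 (-0.06, 5.9% and 10.0%) were the genes below 0 per the authors' deposited table. Of the 11 genes, 4 reached the 10% limit in 1 group only, Stmn1 and Dut in group 1 and Pcna and Hmgb1 in group 2. The direction of their detection was fixed by that limit. The 11 listed inhibitors of the cycle had a median of 0, and 6 of them were at or above 0. At -0.25 or less were 2, against 6.47% of all genes, Btg2 at -0.43 (47.1% and 57.5%) and Cdkn1a at -0.39 (44.1% and 42.5%) per the authors' deposited table. Gadd45a was at 0.23 (23.5% and 25%) per the authors' deposited table. Of 5 listed enterocyte markers, 4 were lower in the same sheet (Apoa1 at -0.36, 82.4% and 92.5%) per the authors' deposited table. Stem markers had 4 of 8 listed, with a median of 0.16 and Olfm4 at 0.33 (14.7% and 12.5%) per the authors' deposited table, though Rgmb was at -0.23. Of these 4, 3 reached the 10% limit in 1 group only, Slc12a2 and Lgr5 in group 1 and Rgmb in group 2. That limit fixed the direction of their detection, so they are no parallel to the cycle genes. The 8 markers of enteroendocrine cells were split, with 2 higher and 4 lower. Their values ran from Pyy at 1.62 (52.9% and 27.5%) and Sct at 1.19 (85.3% and 72.5%) to Chgb at -1.21 (70.6% and 90.0%), Chga at -1.22 (76.5% and 82.5%) and Tph1 at -1.27 (20.6% and 45.0%) per the authors' deposited table. The part of these marker lists in the cycle genes' values was not tested. As the order of the groups may differ between sheets, the opposite sign is not given as a difference between cell types in the response to nociceptor loss.

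In tuft cells 25 of the 26 listed genes were below 0, against 68.7% of all genes, but 21 of the 26 reached the 10% limit in 1 group only. The fold threshold was passed by 13 of 26, against 22.4% of all genes of the sheet, and none was at 0.25 or more, against 6.59%. Among the 5 genes at 10% or more in both groups, 1 passed, against 28.0% of all such genes. In all, 14 genes were listed at 0 in group 1, among them Tyms, Dut, Cdk1 and Top2a, and their fold changes are not read as sizes. The most frequent of the 14 in group 2 was Hmgb2, in 42.9% of cells per the authors' deposited table. Cdk4 was at -0.82 (5.6% and 42.9%), Ptma at -0.78 (66.7% and 71.4%) and Rrm1 at -0.70 (5.6% and 42.9%) per the authors' deposited table. Ran, at 0.15, was the gene above 0 and was listed at 0 in group 2 with detection in 11.1% of group 1 per the authors' deposited table. By detection, Ran was the 1 gene of 26 that was higher by 10 points or more in group 1, against 22.7% of all genes. Of 7 listed enterocyte markers, 4 were higher in the same sheet (Apoa1 at 1.59, 88.9% and 100% of cells) per the authors' deposited table, and their part in the cycle genes' values was not tested. With 8 distinct shares in group 2, these shares are coarse, and the lowest of them above 0 for a cycle gene was 14.3%.

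**Figure D4:**
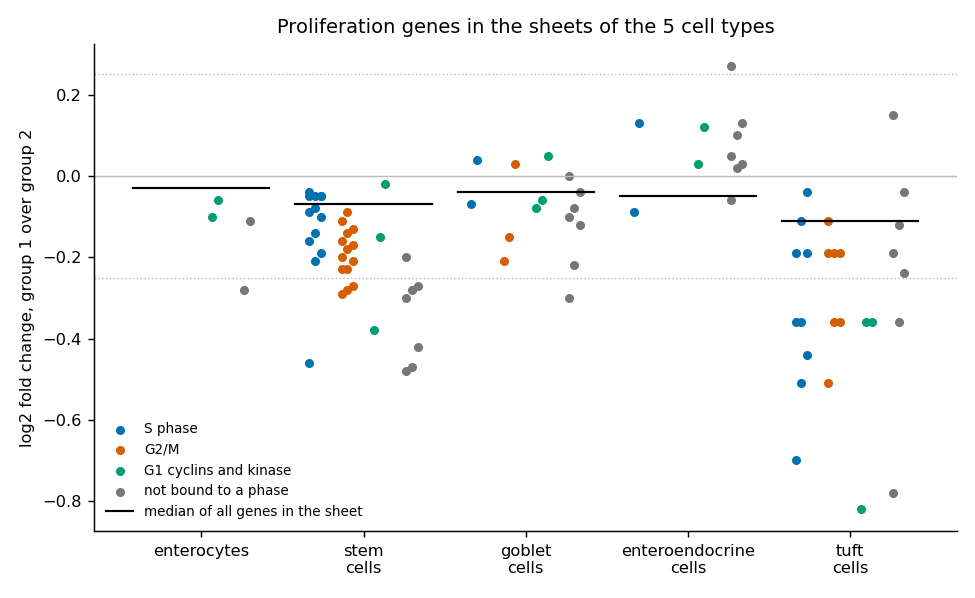
Log2 fold change of group 1 over group 2 for every listed cycle gene in each of the 5 cell type sheets, coloured by the part of the cycle, with the median of all genes of the sheet as a black line and dotted lines at -0.25 and 0.25. Stem cells show all 14 G2/M genes under the median of -0.07, enteroendocrine cells show 9 of 11 genes above theirs of -0.05, and tuft cells show the widest spread, from -0.82 to 0.15.

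Among the 4 genes listed in every sheet, fold changes were set side by side by size without their sign, since the order of the groups may differ. Ptma was the furthest from 0 of the 4 in enterocytes, goblet cells and enteroendocrine cells. It was close behind H2afz in stem cells (-0.47 and -0.48) and Cdk4 in tuft cells (-0.78 and -0.82) per the authors' deposited table. Ccnd2 was at -0.36 in tuft cells (5.6% and 14.3%) per the authors' deposited table, and no further from 0 than 0.12 in the other sheets. In tuft cells, Cdk4 (5.6% and 42.9%) and Ccnd2 reached the limit for listing in group 2 only per the authors' deposited table. That limit fixed the direction of their detection. The fold threshold was passed on the lower side by 22.4% of all genes of the tuft sheet. The order of Cdk4 and Ptma there, and the larger size of Ccnd2, are not read as differences between genes or cell types.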

How the data were processed

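Single-cell RNA sequencing of 2 samples, 1 per genotype, was analysed from the authors' tables. Cell Ranger, Seurat and DESeq2 (1.30.1) are named in the submitters' processing notes, with mm10 as the build. Which tool made which column, and how cells were filtered, freed of doublets and assigned to types, is not stated there. Per the file headers, the deposited columns are a log2 fold change and, for each group of cells, the fraction of cells with the gene detected, printed here as a percent. The authors' p-values were computed over cells and were not used. Cell numbers were not inferred from fractions, so no interval is given.

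Members, phase lists and further lists were chosen with earlier results of these data known. Members were matched to the sheets by symbol, and to the RefSeq gene table of GRCm38.p6 for positions (38 by symbol, 1 by a synonym, and Hist1h2ap to more than 1 gene). Counts at a log2 fold change of -0.25 or less and 0.25 or more, and medians, were set beside the same over all genes of a sheet with Python 3.11.15 and pandas 2.3.3; the tallies were tested on simulated data. No test of genotype was made. Every listed member could be named; of the further cycle lists, the 5 whose fold change was furthest from 0 among genes at or over the median detection of their sheet. Ranges of mean detection (cut at 25% and 50%) and the limit of 10% in both groups were chosen after seeing the data. Alternatives were other fold thresholds (0.1 and 0.5), counting from the median of all genes, a detection of 25% in one group, a detection difference of 10 points, the mean, and narrower phase lists.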

Additional observations from a re-analysis of the deposited data

Results flagged for a closer look

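Ptma had a log2 fold change of 0.27 in enteroendocrine cells in the authors' deposited table, against -0.78 in tuft, -0.47 in stem, -0.30 in goblet cells and -0.28 in enterocytes. It was noted because its sign was opposite between cell types, past 0.25 on both sides. The difference was not tested, each value comes from 1 sample per genotype, and the sheets do not say that groups 1 and 2 have the same order in each. In enteroendocrine cells its detection was lower in group 1 (73.5%) than in group 2 (82.5%), so fold change and detection had opposite signs there.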

How the results depend on the processing

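Under the alternatives, 72 values stayed within 1.5 times of the reported count or 0.05 of the reported median, and 29 did not. Within these counts the genes can differ. By a detection difference of 10 points, the 1 gene of 11 higher in enteroendocrine cells (all genes 6.6%) was Dut, while Ptma, the gene called higher by fold change, had a difference of -9.0 points. Dut reached the limit of 10% in group 1 only. With the threshold at 0.1, the genes lower in group 1 were 2 of 4 in enterocytes, 27 of 37 in stem cells, 5 of 15 in goblet cells and 23 of 26 in tuft cells (all genes 14.4%, 31.5%, 23.1% and 58.9%), and those higher were 5 of 11 in enteroendocrine cells and 1 of 26 in tuft cells (16.1% and 24.2%). At 0.5, 0 were lower in enterocytes, stem and goblet cells and 5 in tuft cells (0.292%, 0.148%, 0.0661% and 7.08%), and 0 were higher in enteroendocrine cells (0.132%). Counted from the median of all genes, 0 were lower in enterocytes, 5 in stem cells and 6 in tuft cells (1.05%, 1.61% and 10.6%), and 1 was higher in tuft cells (23.6%). By the detection difference, 1 was higher in tuft cells (22.7%). With a detection of 25% in one group, 8 of 10 were lower in tuft cells (53.2%), a filter that genes can pass through a single group. The medians were then -0.28 in enterocytes (1 gene), -0.16 for S phase in stem cells (all genes -0.12), and, in tuft cells, -0.48 over 10 cycle genes, -0.48 for S phase (4 genes) and -0.51 for G2/M (1 gene, Hmgb2, listed at 0 in group 1), against -0.28 over all genes. With 10% in both groups, 1 of 5 was lower in tuft cells (28.0%), with medians of -0.12 for these 5 and -0.04 for S phase (1 gene; all genes -0.07), and the G2/M median in goblet cells was -0.21 (1 gene). Narrower phase lists gave -0.06 for G2/M in goblet cells and -0.28 for S phase in tuft cells, and the mean gave -0.28 for G2/M in tuft cells. Fewer genes pass a stricter threshold or filter by construction; otherwise the cause was not tested. No paired analysis was possible because each genotype had 1 sample. Cell number and depth behind the sheets are unknown, which limits the tuft and enteroendocrine values most, as their shares take the fewest steps.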
